A study of Mus musculus with 12 samples.

Results

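The mTORC1 pathway and its 4E-binding proteins were followed here in B16 cells, a mouse melanoma line, through 10 genes. They were taken by symbol from a table of 24421 genes: Mtor, Rptor, Rictor, Akt1s1, Tsc1, Tsc2, Rheb, Rps6kb1, Eif4ebp1 and Eif4ebp2. All 10 were in the table, and all 10 passed the filter on low counts in both kinds of library. The cells had been infected with lentivirus that carried either a non-relevant shRNA (shControl) or 1 hairpin directed at Elp3 (shElp3, named sh309). Total RNA after ribosomal RNA depletion and ribosome-protected fragments (RPF, or footprints, the stretches of mRNA shielded by ribosomes) were sequenced. Each of the 4 groups has 3 libraries with the letters A, B and C, and RNA and RPF libraries of 1 shRNA and letter are taken here as 1 culture, which gives 6 cultures and 12 libraries. The knockdown is 1 hairpin in 1 cell line, and nothing in the labels says that the cultures were separate transductions. The p-values therefore cover the spread among these libraries, which may be technical.

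The kinase mTOR works in separate complexes. With Raptor (Rptor) it forms mTORC1, which senses amino acids, growth factors and energy at the lysosome, and with Rictor it forms mTORC2, which phosphorylates AKT. The TSC1-TSC2 complex keeps the small GTPase RHEB in its inactive form, RHEB bound to GTP activates mTORC1, and PRAS40 (Akt1s1) is a substrate and inhibitor of mTORC1. Active mTORC1 phosphorylates the S6 kinase S6K1 (Rps6kb1) and the 4E-binding proteins, which in their unphosphorylated form hold the cap-binding factor eIF4E away from eIF4G. Elp3 is the catalytic subunit of Elongator, which begins the modification of the wobble uridine of a set of tRNAs. In melanoma the pathway is known for its activation through AKT and for its control of cap-dependent translation. The labels state no question about mTORC1. The comparison made here asks whether the mRNAs of these components, or the ribosomes on them, differ between shElp3 and shControl cells. Phosphorylation and kinase activity were not measured.

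Sequencing depth ran from 7914369 to 16527864 counts for RNA and from 7619269 to 10998570 for RPF, and the 10 members together took 0.0657 to 0.111% of the counts of an RNA library and 0.0657 to 0.075% of those of an RPF library. Levels below are in CPM, counts scaled to library size with TMM factors. Elp3 itself stood at 93.9, 72.1 and 70.0 CPM in RNA of control A, B and C and at 41.3, 35.3 and 35.4 after the Elp3 hairpin, without overlap (log2 fold change -1.08, edgeR adjusted p = 0.083, and 0.00098 with the letter as a block), and its footprints fell by 0.93 on the log2 scale (edgeR adjusted p = 0.025). Letter A stood apart: across genes its Spearman correlation with B or C was 0.891 to 0.948 in both RNA groups and in control footprints, against 0.987 to 0.993 for B with C, while shElp3 footprints ran from 0.981 to 0.991 over all pairs. The 8 melanocyte markers, all detected in every library, summed to 9033 to 12122 CPM in control RNA and 6073 to 7641 in shElp3 RNA, and to 14848 to 34610 and 11645 to 20591 in footprints. The 8 leukocyte markers summed to 6.23 to 77.2 CPM, nearly all of it Cd68 and Lyz2 (up to 540 and 63 counts in a library). The others had at most 4 counts each in any library, and the 6 epithelial markers summed to at most 1.38 CPM. The 7 fibroblast markers summed to 13.1 to 24.6 CPM in control RNA and 21.8 to 43.1 in shElp3 RNA, and to 24.8 to 26.6 and 35.3 to 40.4 in footprints, nearly all of it Col1a1 and Pdgfra, while Dcn was at 0 counts in every library. The part of these markers in the results below was not tested.

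In shElp3 cells footprints of Raptor were called higher, close to the threshold (log2 fold change 0.61, edgeR adjusted p = 0.044). Those of Tsc1 and Tsc2 lay above control in every library and were not called, for Tsc2 at a like change (0.62, edgeR adjusted p = 0.052). Of 13 alternatives 6 called Rptor and 4 called Tsc2 in footprints. Mtor and both 4E-binding proteins did not pass the test in any measure. In footprints 1 of the 10 members was called at an edgeR adjusted p under 0.05, against 4.83% of the 11343 genes tested (1.77% higher), and 4 had an unadjusted p under 0.05, against 23.1%. In total RNA none was called by edgeR or DESeq2, against 1.14% of 12274 genes in edgeR. In edgeR without a block none had an unadjusted p under 0.05, against 12.4% of genes. In DESeq2 1 did, where the share of all genes was not computed. Where the replicate letter entered the total RNA fit as a block, 2 members were called, both higher, against 12.2% of genes called in that fit (5.46% higher). The median log2 fold change of the members was -0.03 in total RNA and 0.12 in footprints, beside -0.02 and -0.01 for all genes tested. The shRNA groups did not overlap for 4 members in footprints, 3 higher and 1 lower, against 30.8% of genes, and for 1 member in total RNA, against 19.8%. Counts of this size among 10 genes lie near these shares and are not a result about the members. CPM is a share of each library, so fewer cells that express a gene and less of its RNA per cell cannot be told apart.

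**Figure D1:**
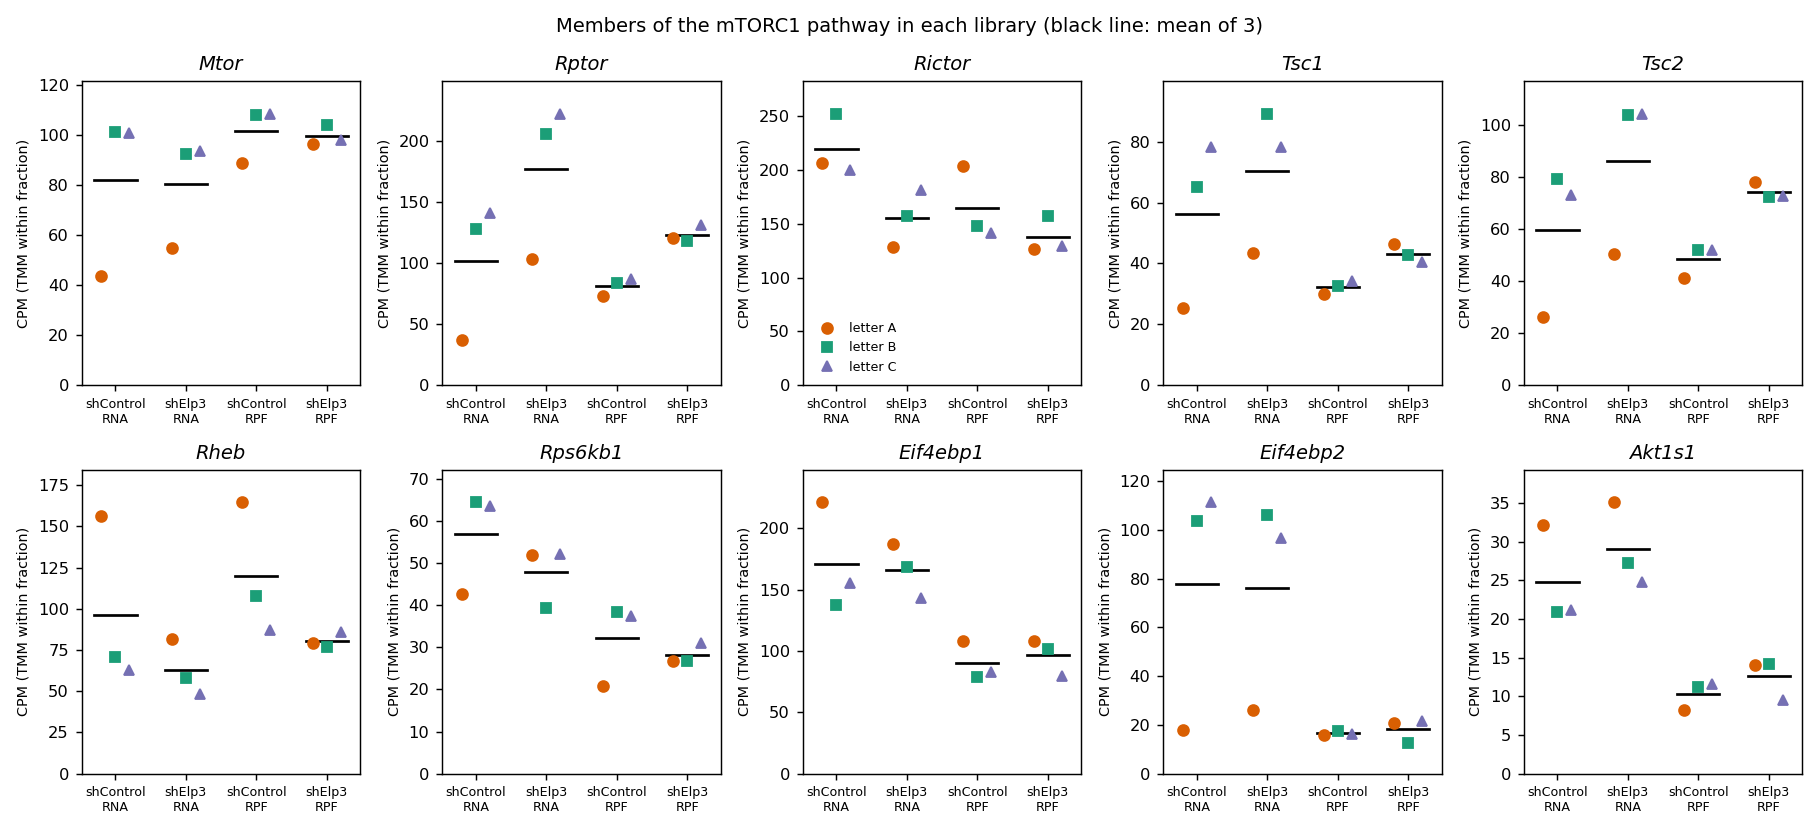
Abundance of each member in CPM (vertical axis, scaled by TMM within a fraction, from 0) in the 4 groups, where each point is a library marked by letter and each line is the mean of 3. Raptor footprints lie between 72.7 and 86.6 in control and between 117.7 and 131.1 in shElp3 libraries, and the letter A RNA points of Mtor, Rptor, Tsc1, Tsc2 and Eif4ebp2 lie below B and C under both shRNAs.

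Rptor (chromosome 11, 119602905 to 119899591, mm10) encodes Raptor, the scaffold that brings substrates to mTORC1. Its footprints were 72.7, 83.4 and 86.6 CPM in control A, B and C and 120.7, 117.7 and 131.1 CPM in shElp3 A, B and C. Every shElp3 library lay above every control library. The footprint level rose by 0.61 on the log2 scale (SE 0.13, 95% interval 0.30 to 0.91, edgeR adjusted p = 0.044), a fold of 1.52. Taken within a letter, the footprint change was 0.73 for A, 0.50 for B and 0.60 for C. The adjusted p lies close to the threshold: it was 0.054 with no filter on counts, 0.059 with the replicate block, 0.138 and 0.107 without control RPF B or C, and 0.168, 0.182 and 0.154 without shElp3 RPF A, B or C, at log2 fold changes of 0.56 to 0.66, and over all alternatives it ran from 0.0014 to 0.182.

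In total RNA Rptor had 36.5, 128.4 and 140.7 CPM in control A, B and C and 103.5, 206.3 and 222.6 CPM in shElp3 A, B and C. The shElp3 library was higher than its control for every letter, by 0.68 on the log2 scale for B, 0.66 for C and more for A, but shElp3 A lay below control B and C, so the groups overlap. Without a block the log2 fold change was 0.80 (SE 0.52, edgeR adjusted p = 0.636). With the letter as a block it was 0.94 (SE 0.20, edgeR adjusted p = 0.0068), and with letters B and C only 0.67 (SE 0.14, edgeR adjusted p = 0.0032, where 19.4% of genes were called, 8.88% higher). Over all alternatives the adjusted p ran from 0.0032 to 0.98. The lncRNA Rptoros lies within the Rptor locus and had at most 7 counts in a library.

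The sequence upstream of Rptor is shown because it is the member whose footprints were called, beside that of Rheb, whose footprints lay below control. Both are the 250 bases before the annotated start in RefSeq (GRCm38.p6), 5′ to 3′ on the strand of the gene, at chr11:119602655-119602904 (plus strand) and chr5:24842362-24842611 (minus strand). Capitals mark matches, on either strand, to any of 7 motifs: CACGTG (E-box), TGACGTCA (CRE), CCGGAAGT (ETS), GGGCGG (SP1), CCAAT, GCGCATGC (NRF1) and TGATGCAA (C/EBP-ATF).
Rptor: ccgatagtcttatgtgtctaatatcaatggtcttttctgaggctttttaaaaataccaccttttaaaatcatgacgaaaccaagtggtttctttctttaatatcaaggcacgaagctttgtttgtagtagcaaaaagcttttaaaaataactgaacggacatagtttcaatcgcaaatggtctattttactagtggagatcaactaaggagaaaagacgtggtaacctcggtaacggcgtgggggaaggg
Rheb: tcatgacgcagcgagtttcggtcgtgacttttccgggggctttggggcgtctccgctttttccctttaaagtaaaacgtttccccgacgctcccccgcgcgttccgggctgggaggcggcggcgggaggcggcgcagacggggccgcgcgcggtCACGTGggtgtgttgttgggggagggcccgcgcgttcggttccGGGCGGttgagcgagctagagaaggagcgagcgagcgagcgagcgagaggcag
The Rptor stretch holds 37.6% G and C and none of the 7 motifs, and the Rheb stretch holds 68.0% G and C, against a median of 52.4% over 32851 promoters. Rheb has CACGTG, which 6.02% of all promoters hold, with its first base 96 bases before the start, and GGGCGG, which 32.7% hold, 53 bases before it. Of the 9 members with a promoter in the table (Eif4ebp1 has none there), CACGTG was found in Rheb only, and Tsc1 like Rptor held none of the 7. A match is a description of letters in this window and not a bound site.

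Mtor (chromosome 4, 148448582 to 148557685) encodes the kinase itself. Its footprints were 88.8, 107.9 and 108.5 CPM in control A, B and C and 96.5, 103.9 and 97.8 in shElp3. The groups overlap and the log2 fold change in footprints was -0.03 (95% interval -0.35 to 0.28, edgeR adjusted p = 0.905). In total RNA Mtor had 43.6, 101.2 and 100.8 CPM in control and 54.7, 92.4 and 93.6 in shElp3 libraries, with letter A the lowest under both shRNAs. The log2 fold change there was -0.03 (95% interval -0.92 to 0.86, edgeR adjusted p = 0.99). Both intervals exclude a change of 1 on the log2 scale in either direction.

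Rictor (chromosome 15, 6708349 to 6800401), the defining subunit of mTORC2, was the member whose RNA groups did not overlap. It had 206.1, 252.4 and 199.6 CPM in control RNA and 127.9, 157.0 and 181.2 CPM in shElp3 RNA. All 3 shElp3 libraries were below all 3 controls, as for 9.56% of genes. The log2 fold change in RNA was -0.50 (SE 0.23, edgeR adjusted p = 0.452), and no alternative called it. In footprints the levels were 204.1, 148.4 and 141.2 CPM in control and 126.4, 157.1 and 129.6 in shElp3, with overlap and a log2 fold change of -0.26 (edgeR adjusted p = 0.437). The footprint difference was -0.69 in letter A, 0.08 in B and -0.12 in C.

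Akt1s1 (chromosome 7, 44849224 to 44855421), which encodes PRAS40, had the fewest counts of the 10, down to 59 in a library. Its footprints were 8.26, 11.2 and 11.6 CPM in control and 14.1, 14.2 and 9.55 in shElp3. The shElp3 C library lay within the control range, and the log2 fold change was 0.28 (95% interval -0.27 to 0.82, edgeR adjusted p = 0.527). In RNA it was 0.23 (edgeR adjusted p = 0.832), with 24.7 ± 6.47 CPM in control and 29.0 ± 5.40 in shElp3 (SD, n = 3).

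Tsc2 (chromosome 17, 24595816 to 24632676) encodes tuberin, the GTPase-activating subunit that acts on RHEB. Its footprints were 41.2, 51.7 and 51.7 CPM in control and 78.1, 72.1 and 72.6 in shElp3 libraries, with no overlap. This difference, 0.62 on the log2 scale (SE 0.14, edgeR adjusted p = 0.052), was close in size to that of Rptor and did not pass the threshold. It was called by DESeq2 (adjusted p = 0.0040), with upper quartile scaling (edgeR adjusted p = 0.040), with letters B and C only (0.018, where 21.7% of genes were called, 9.41% higher) and without control RPF A (0.012), and over all alternatives ran up to 0.202. In total RNA Tsc2 had 26.2, 79.2 and 72.9 CPM in control and 50.5, 103.7 and 104.2 in shElp3, higher within each letter by 0.95, 0.39 and 0.51. The RNA log2 fold change was 0.54 (edgeR adjusted p = 0.746) without a block. With the letter block it was 0.61 (SE 0.18, edgeR adjusted p = 0.040), and with letters B and C only 0.45 (0.041), over a range of 0.040 to 0.99. The Tsc2 locus shares 699 bases with Pkd1, which has up to 6708 counts in a library, and reads there cannot be told apart without the strand setting.

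Tsc1 (chromosome 2, 28640993 to 28691172) encodes hamartin, which stabilises tuberin. Its footprints were 29.8, 32.7 and 34.3 CPM in control and 46.3, 42.9 and 40.5 in shElp3, again with every shElp3 library above every control library. The log2 fold change was 0.42 (SE 0.14, edgeR adjusted p = 0.116), and no alternative called it. In RNA Tsc1 had 25.3, 65.2 and 78.1 CPM in control and 43.3, 89.2 and 78.4 in shElp3, with overlap and a log2 fold change of 0.32 (edgeR adjusted p = 0.866). Groups without overlap and higher in shElp3 footprints, as for Rptor, Tsc1 and Tsc2, were found for 15.4% of all genes.

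Rheb (chromosome 5, 24802823 to 24842361) encodes the GTPase that TSC1-TSC2 switches off. Its footprints were 164.6, 107.7 and 87.2 CPM in control and 79.3, 76.5 and 86.1 in shElp3. All shElp3 libraries lay below all controls, as for 15.3% of genes, but by a narrow margin to control C. The log2 fold change in footprints was -0.57 (SE 0.23, edgeR adjusted p = 0.190), and within letters it was -1.05, -0.49 and -0.02. When letter A was left out it was -0.26 (edgeR adjusted p = 0.223). In RNA Rheb had 156.1, 70.6 and 62.8 CPM in control and 81.5, 58.0 and 48.4 in shElp3, with differences of -0.94 in letter A, -0.28 in B and -0.37 in C. The RNA groups overlap, and the log2 fold change of -0.62 was not called (edgeR adjusted p = 0.623, and 0.077 with the letter block).

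**Figure D2:**
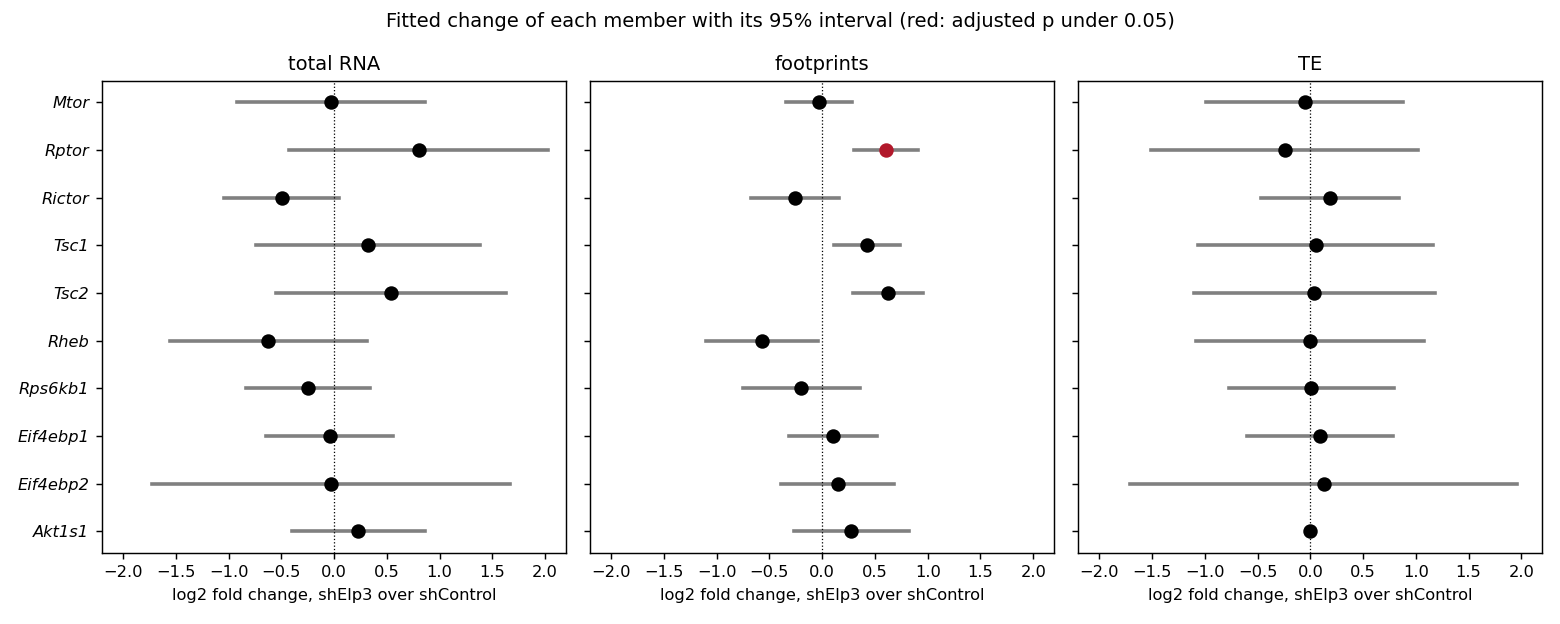
Log2 fold change of shElp3 over shControl (horizontal axis) for each member in total RNA, footprints and translational efficiency (TE), with 95% intervals as lines and the called value in red. Rptor in footprints (0.61) is the called value, and the intervals in footprints are the narrowest, while no interval is drawn for Akt1s1 in TE.

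Rps6kb1 (chromosome 11, 86498869 to 86544885) encodes S6K1, which phosphorylates ribosomal protein S6. It had 64.4 and 63.4 CPM in control RNA B and C and 42.7 in A, and 51.9, 39.2 and 52.2 in shElp3 A, B and C. The RNA log2 fold change was -0.25 (edgeR adjusted p = 0.797), with 0.28 in letter A, -0.72 in B and -0.28 in C. Footprints were 20.7, 38.5 and 37.5 CPM in control and 26.7, 26.8 and 31.1 in shElp3. Control A was the lowest library of all and control B and C the highest, so the direction differs by letter: 0.37 in A, -0.52 in B and -0.27 in C. The footprint log2 fold change was -0.20 (edgeR adjusted p = 0.667), and it was called when control RPF A was left out (-0.44, edgeR adjusted p = 0.034), over a range of 0.034 to 0.938. The locus shares 139 bases with Rnft1.

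Eif4ebp1 (chromosome 8, 27260327 to 27275656) encodes 4E-BP1. Its RNA was 221.3, 137.4 and 155.5 CPM in control and 187.7, 168.9 and 143.0 in shElp3, and its footprints were 108.4, 78.9 and 83.3 CPM in control and 108.6, 101.4 and 80.0 in shElp3. The shRNA groups overlap in both measures. The log2 fold change was -0.04 (95% interval -0.64 to 0.56, edgeR adjusted p = 0.979) in RNA and 0.10 (95% interval -0.32 to 0.52, edgeR adjusted p = 0.779) in footprints. Both intervals exclude a change of 1 on the log2 scale.

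Eif4ebp2 (chromosome 10, 61428491 to 61452790) encodes 4E-BP2, the second 4E-binding protein. Its footprints were 15.7, 17.7 and 16.1 CPM in control and 20.8, 12.6 and 21.6 in shElp3, on 112 to 201 counts, with a log2 fold change of 0.15 (95% interval -0.39 to 0.68, edgeR adjusted p = 0.741). In RNA it had 18.1, 103.7 and 111.3 CPM in control A, B and C and 26.0, 106.2 and 96.8 in shElp3. Both letter A libraries were several-fold below the other 4, which lie between 96.8 and 111.3. The RNA log2 fold change of -0.03 therefore had the widest interval of the 10 (-1.72 to 1.67), and when letter A was left out it was -0.08 (95% interval -0.39 to 0.23). The third paralog, Eif4ebp3, was near the filter, at 2.93 ± 1.41 CPM in control RNA and 1.98 ± 1.09 in control footprints (SD, n = 3).

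Under both shRNAs 5 members (Mtor, Rptor, Tsc1, Tsc2 and Eif4ebp2) were lower in letter A than in B and C in RNA, by more than letter A differed in footprints. In control RNA the mean of B and C was 5.93 times the level in A for Eif4ebp2, 3.68 times for Rptor, 2.90 times for Tsc2, 2.82 times for Tsc1 and 2.32 times for Mtor. In shElp3 RNA the same 5 genes stood at 3.90, 2.07, 2.06, 1.93 and 1.70 times. In control footprints the log2 difference of A from B and C for these 5 lay between -0.33 and -0.11. Rheb went the other way, with A at 2.34 times B and C in control RNA, 1.54 times in shElp3 RNA and 1.70 times in control footprints, and Akt1s1 (1.53 and 1.35 times) and Eif4ebp1 (1.51 and 1.21 times) were also higher in A in RNA. Rps6kb1 was lower in A in control footprints, by a log2 difference of -0.87, and in control RNA (-0.58). The Eif4ebp2 difference was lower than that of all but 2.04% of genes in control RNA and 1.71% in shElp3 RNA. The other members were less extreme: these shares were 6.07 and 9.35% for Rptor, 9.61 and 9.44% for Tsc2, 10.1 and 11.4% for Tsc1 and 15.0 and 15.8% for Mtor. The median size of the difference over all genes was 0.70 and 0.46. The share of all genes lower in A under both shRNAs was not computed. What sets letter A apart was not tested, and the labels give no batch beyond the letter.

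**Figure D3:**
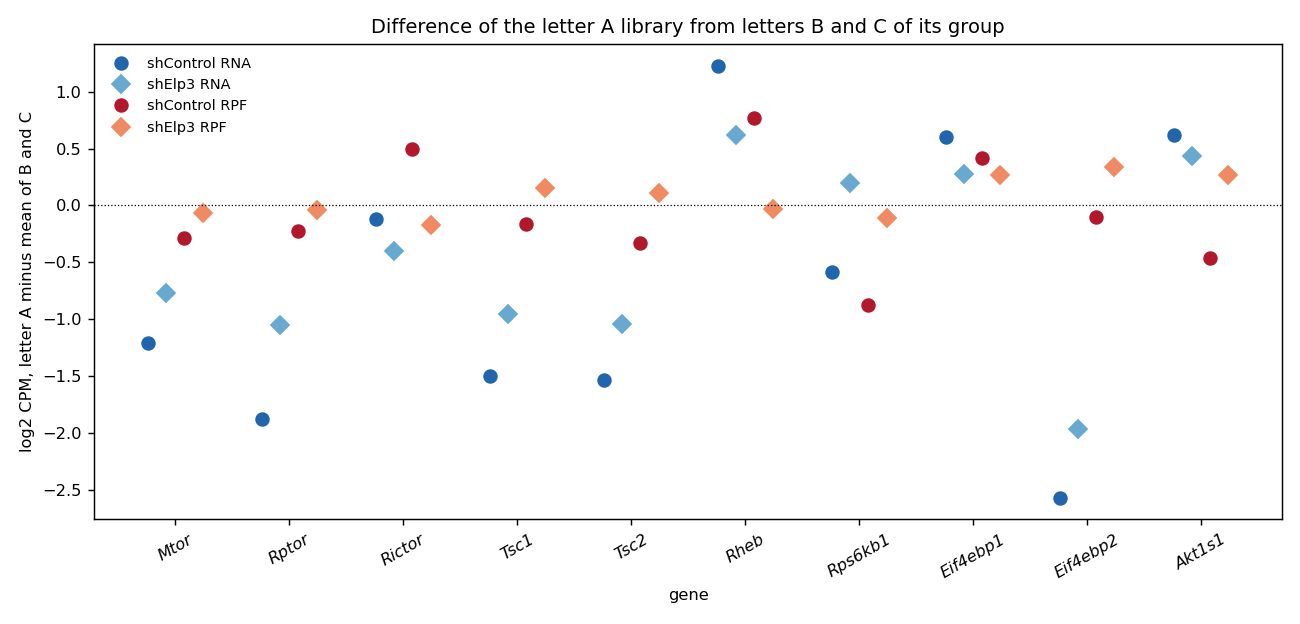
Log2 CPM of the letter A library minus the mean of B and C (vertical axis) for each member in the 4 groups. In RNA (blue) Eif4ebp2 lies at -2.57 and -1.96 and Rheb at 1.23 and 0.62, while the footprint values (red and orange) of Eif4ebp2 lie at -0.11 and 0.34.

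Footprints were set against RNA within each culture, to ask whether the mRNAs carry more or fewer ribosomes per transcript. The change in this ratio, the translational efficiency (TE), is the interaction term between shRNA and fraction in 1 fit of all 12 libraries. No member was called for TE by edgeR, DESeq2 or limma voom and none had an unadjusted p under 0.05, against 0 of 11238 genes called and 62 (0.552%) at an unadjusted p under 0.05. The members' log2 TE changes ran from -0.24 (Rptor) to 0.19 (Rictor), with a median of 0.02 beside -0.03 for all genes. No member had shRNA groups that did not overlap, against 6.58% of genes. For Rptor the log2 TE change was -0.77 in letter A, -0.19 in B and -0.06 in C, and for Tsc2 it was -0.02, 0.09 and -0.03. The precision of this fit, which holds no term for letter or culture, is low: the SE was 0.30 to 0.84 for 9 members. For 5 of them the 95% interval reaches a change of 1 on the log2 scale. No SE is given there for Akt1s1, whose fitted change was too near 0. With the letter as a block the members' SE ran from 0.21 (Mtor) to 0.31 (Rps6kb1). The blocked interval was -0.95 to 0.18 for Rptor and -0.71 to 0.63 for Eif4ebp2, and 0 of 11238 genes were called. With letters B and C only the interval was -0.50 to 0.22 for Rptor, -0.35 to 0.37 for Tsc2 and -0.34 to 0.33 for Mtor, and 2 of 11290 genes (0.0177%) were called, neither a member. Gene lengths without introns were not used here, so the members are not ordered by level.

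The level of the ratio itself varied among the members. Eif4ebp1 had the steadiest ratio, with log2 footprint over RNA of -1.03, -0.80 and -0.90 in control A, B and C and -0.79, -0.74 and -0.84 in shElp3, which is 0.49 to 0.60 footprint CPM per RNA CPM in all 6 cultures. Eif4ebp2 had -0.21, -2.55 and -2.79 in control and -0.32, -3.08 and -2.17 in shElp3, so that letters B and C lay at 0.118 to 0.223 and letter A at 0.866 and 0.802. Mtor was at 0.09 and 0.11 in control B and C and 1.03 in A, and Rptor at -0.62 and -0.70 against 0.99. Rheb stood at 0.08, 0.61 and 0.47 in control and -0.04, 0.40 and 0.83 in shElp3, with letter A the lowest. The control median over all genes was -0.14. Letter A gave the highest ratio of its shRNA group for Mtor, Rptor, Tsc1, Tsc2 and Eif4ebp2 under both shRNAs, the 5 genes whose RNA was low there.

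**Figure D4:**
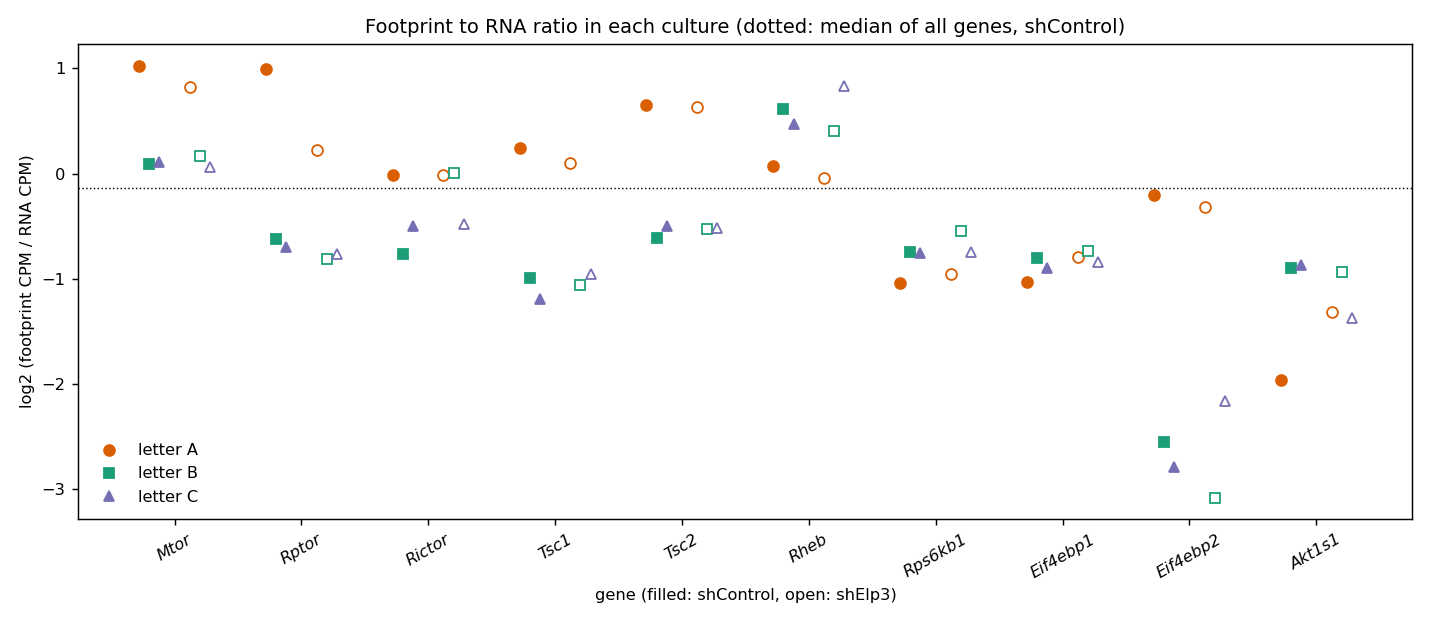
Log2 ratio of footprint CPM to RNA CPM (vertical axis) for each member in the 6 cultures, filled for shControl and open for shElp3, with the control median of all genes (-0.14) as a dotted line. The widest range is that of Eif4ebp2, from -0.21 in control A to -3.08 in shElp3 B, and the narrowest that of Eif4ebp1.

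Across the 12 libraries, with the mean of each fraction taken out, the log2 levels of Rptor and Tsc2 had a Pearson r of 0.98, Tsc1 and Tsc2 0.97, and Rptor and Rheb -0.92. These are descriptions over libraries that share the letter A difference. By the same measure, among 8646 genes, the 3 genes most like Mtor were Map1b (0.99), Pitpnb (0.99) and Arhgap32 (0.99). Those most like Eif4ebp2 were Peak1 (0.99), Gas7 (0.99) and Ston1 (0.98), and those most like Eif4ebp1 were Plekha3, Gadd45a and Cdk2ap2 (each 0.97).

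Other genes of the pathway were taken from 7 lists, which held 80 symbols, 78 of them in the table: partners of the mTOR complexes, partners of TSC and Rheb, PI3K and AKT inputs, AMPK and stress inputs, Rag and Ragulator genes, the GATOR complexes with the amino acid sensors, and further mTORC1 substrates with the cap-binding genes. In total RNA 0 of 77 tested genes were called by edgeR without a block, against 1.14% of all genes. Their median log2 fold change was 0.00 beside -0.02 for all genes. In that fit 3 had an unadjusted p under 0.05, against 12.4% of all genes. DESeq2 called 1 of the 77, against 652 of 12274 genes. With the letter block 3 of 77 were called, a smaller share than the 12.2% of all genes (5.46% higher), all of them higher: folliculin (Flcn, 1.11, edgeR adjusted p = 0.0021), a GTPase-activating protein for the Rag GTPases, Wdr24 (0.77, 0.014), a subunit of GATOR2, and the insulin receptor Insr (0.60, 0.045). In footprints 1 of 76 was called, a smaller share than the 4.83% of all genes. Eif4e, the cap-binding protein that 4E-BPs hold, was lower, with 204.1, 184.0 and 191.5 CPM in control A, B and C and 136.9, 138.6 and 124.5 in shElp3, without overlap (-0.53, SE 0.12, edgeR adjusted p = 0.049), and it was not called with the replicate block. In RNA Eif4e had a log2 fold change of -0.67 (edgeR adjusted p = 0.513). For TE 0 of the 76 were called by edgeR or DESeq2, and in edgeR 1 had an unadjusted p under 0.05, against 0.552% of all genes. The median log2 TE change of the 76 was -0.10 beside -0.03 for all genes, with 57 values below 0. It was -0.11 with the letter block and -0.11 with letters B and C only. The share of all genes below 0 in TE was not computed.

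By group, the 8 partners of the mTOR complexes had a median log2 fold change of 0.15 in RNA and -0.08 in footprints (7 tested there). Among them Deptor, an inhibitor of mTOR, had 28.0, 195.4 and 83.0 CPM in control RNA and 30.7, 84.1 and 73.0 in shElp3 RNA, with every shElp3 value inside the control range. The 2 TSC and Rheb partners had medians of -0.14 in RNA and -0.04 in footprints, the 13 PI3K and AKT inputs 0.13 and -0.13, and the 12 AMPK and stress inputs -0.11 and -0.12. Ddit4 (REDD1), a stress-induced inhibitor of mTORC1, had footprints of 178.4, 113.9 and 94.2 CPM in control and 92.4, 81.5 and 69.2 in shElp3, without overlap, and was not called (-0.67, edgeR adjusted p = 0.156). Sesn2, a leucine sensor of the stress response, was not called in RNA (0.51, edgeR adjusted p = 0.479) or footprints (0.09, 0.846). The 13 Rag, Ragulator and folliculin genes ranged from -0.27 to 1.22 in RNA and from -0.68 to 1.16 in footprints, with medians of 0.00 and 0.08. The 13 tested GATOR and sensor genes had medians of 0.15 and 0.02, and the 16 tested substrates and cap-binding genes -0.14 and 0.03.

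The translational output of mTORC1 is known to weigh most on TOP mRNAs, which start with a pyrimidine tract and encode ribosomal proteins and elongation factors. Of a list of 96 such symbols 88 were tested for TE, and 0 were called by edgeR or DESeq2 or had an unadjusted p under 0.05. The median log2 TE change was 0.32 beside -0.03 for all genes, with 79 of 88 values above 0. With letters B and C only the median was -0.02, with 40 of 89 above 0. In footprints the median was 0.04 beside -0.01 for all genes. There 1 of 88 was called higher (Rpl19) and 1 lower (Rpl41), against 4.83% of all genes. With letters B and C only 5 of 89 were called higher and 10 lower in footprints, against 21.7% of all genes. In RNA the median was -0.31 beside -0.02 for all genes, with 89 of 91 values below 0. Of the 91, 0 were called by edgeR or DESeq2, and 3 had an unadjusted p under 0.05 in edgeR, against 12.4% of all genes. The shares of all genes above or below 0 were not computed. The RNA median was -0.23 with the letter block, with 78 of 91 values below 0, and -0.02 with letters B and C only. With the letter block 4 of 91 were called in RNA, all lower (Eif3e, Eif3h, Naca and Npm1), again a smaller share than the 12.2% of all genes. Rps6, the S6K1 substrate whose pseudogenes can share its reads, had 2548, 1176 and 1095 CPM in control RNA A, B and C and 1585, 1179 and 1119 in shElp3, with log2 differences of -0.68 in letter A, 0.00 in B and 0.03 in C, and its footprints lay between 679 and 748 CPM in all 6 libraries.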

How the data were processed

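Per the labels' protocols, the TruSeq Ribo Profile (Mammalian) kit was used for both kinds of library. The authors deposited counts, whole numbers of reads per gene symbol that are not normalized, for all 12 libraries. The tools, per the submitters' processing notes, were HTSeq, TopHat2 2.1.1, Bowtie and bcl2fastq, on build mm10. Annotation, strand setting and counted feature were not given in the sources used here, so overlapping genes may share reads and footprint counts may include fragments outside coding sequence. Loci and promoters came from RefSeq (GRCm38.p6).

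Genes were kept with filterByExpr (minimum count 10) in a fraction, for TE in both. Libraries were scaled by TMM and tested with edgeR 4.0.16 under R 4.3.3 (glmQLFit, then glmQLFTest). Adjusted p-values follow Benjamini and Hochberg across every gene tested, with a threshold of 0.05. The SE is the log2 fold change divided by the root of F, not given below 0.001, and intervals are 95%. The members and lists were chosen with earlier results of these data known. Genes named in the text are the 10 members, Elp3, genes of the lists that were called, further list genes given as values (Eif4ebp3, Deptor, Ddit4, Sesn2, Rps6 and Eif4e), the 3 genes most like Mtor, Eif4ebp1 and Eif4ebp2, markers of cell types and genes that overlap a member. No libraries of a group agreed within sampling noise (chi-square per degree of freedom 8.70 or more).

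To check whether letters pair the cultures, deviations from the group mean were correlated over genes between the shRNAs. Same-letter libraries had r of 0.819 (A), 0.451 (B) and 0.603 (C) in RNA and 0.789, 0.489 and 0.515 in TE. B and C correlated as much across letters (0.599 and 0.709 in RNA). Where A stands apart, B and C both deviate from the group mean the other way, so these values cannot say whether B and C pair by letter. In RPF r was 0.341, -0.109 and 0.221. The main fits hold no block in any measure, and blocked values are given as alternatives for some results.

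The functions were tested on simulated counts drawn from these libraries, with 100 genes changed 2-fold and 100 changed 4-fold. Counts were drawn independently for each library, without a difference shared by a letter, and only the fits without a block were run. For RNA, on 12151 genes, 2% of the smaller and 59% of the larger changes were recovered, with 5 false among 66 calls. For RPF, on 11254 genes, recovery was 37% and 93%, with 17 false among 147 calls. For TE, on 11150 genes, it was 2% and 46%, with 2 false among 50 calls. Alternatives used DESeq2 1.42.0, limma 3.58.1, other scalings and filters, blocks, and left-out libraries.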

Additional observations from a re-analysis of the deposited data

How the results depend on the processing

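Of 410 values (each member in each comparison under each alternative), 394 kept their side of the threshold, 9 gained a call, 7 lost one and 0 called values changed direction. In total RNA 140 genes and 0 members were called. The counts were 652 genes and 0 members with DESeq2, 1499 and 2 with the replicate block, and 2377 and 2 with letters B and C only, and genes ran from 0 to 540 without 1 library (540 without control A, 0 without any other), with 0 members. In footprints 548 genes and 1 member were called. Of 11343 genes DESeq2 called 1308 and 2 members, upper quartile scaling 547 and 2, and the replicate block 666 and 0. With no count filter 764 of 17516 genes and 0 members were called, and with letters B and C only 2477 of 11440 genes and 2. Without 1 library footprint calls ran from 0 to 2856 genes and 0 to 3 members, the highest without control A (2856 and 3), 52 and 59 genes without control B or C, and 0 without any 1 of the shElp3 libraries. Upper quartile scaling split the footprint calls into 277 higher and 270 lower, against 201 and 347. In TE 0 genes were called, and 2 with letters B and C only, neither a member. Of the members' calls, those of Rptor and Tsc2 in RNA came with the block or with letters B and C, and that of Rptor in footprints ended under 7 alternatives. Why these counts move was not tested. Of the 76 other pathway genes tested in footprints, DESeq2 called 3 higher and 3 lower, against 1308 of all 11343 genes. Letters B and C only called 6 and 6 of the 76, against 21.7% of all genes. The call of Eif4e ended with the replicate block. The fits without a block recovered 2% of simulated 2-fold changes in RNA and in TE, so those fits could mostly not detect changes of that size. The simulation held no difference shared by a letter, so it does not say what the blocked fits can detect. Levels per gene length were not computed.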
